A study of Mus musculus with 3 samples.

Results

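Tight junction genes were described in single cells of the fetal thymus. The set held every gene whose symbol begins with Cldn and a digit, the scaffold genes Tjp1 and Tjp3, and Ocln, Marveld2, Marveld3, F11r and Cgn. These were 40 of the 27998 genes counted, 33 of them claudins and 7 of them other junction genes. Fetal thymic lobes of C57BL/6 mouse embryos at gestational day 13 to 13.5 had been dispersed with trypsin and sequenced from the 3′ end of each transcript. There was 1 library for each of 3 genotypes: wild type (the control), Tbx1neo2/neo2, in which a neomycin cassette sits in an intron of Tbx1 in the opposite orientation, and Foxn11089/1089, which carries a short deletion in the coding sequence of Foxn1. Both alleles are constitutive. How many embryos went into a library and their sex were not given in the sources used here. No genotype had a second library, so genotypes are compared by their values with exact 95% counting intervals, which cover counting error only, and without a test.

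Tight junctions seal the space between neighbouring cells of an epithelium or endothelium. Claudins are the membrane proteins that form the strands and set which ions pass. Occludin (Ocln), tricellulin (Marveld2) and Marveld3 share the MARVEL fold, and F11r, also called JAM-A, is an immunoglobulin-type adhesion protein. The scaffolds ZO-1 and ZO-3 (Tjp1 and Tjp3) and cingulin (Cgn) tie these membrane proteins to the actin cytoskeleton. In the thymus the epithelium forms an open meshwork rather than a sheet, and Cldn3 and Cldn4 are known for marking early cells of the medullary lineage, while Cldn5 is the main claudin of endothelium.

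The libraries held 6410, 5759 and 12447 barcodes in the order control, Tbx1neo2/neo2 and Foxn11089/1089, an order kept throughout, with 82936619, 137498422 and 204655055 unique molecular identifiers (UMIs, each marking 1 captured transcript). Libraries shared between 17 and 28 barcodes, at most 0.486% of the smaller library. Cells were assigned by gate genes that are no members of the set. Epcam-positive cells numbered 1982, 796 and 3908 and were divided into Psmb11-positive cells (1087, 406 and 246), Krt5-high cells (263, 59 and 590), Pth-high cells (26, 0 and 345) and the remaining Epcam-positive cells (606, 331 and 2727). Cdh5-positive cells, named here endothelium after Cdh5 (VE-cadherin), numbered 48, 90 and 102. Summed check markers followed the gates, in part by construction, since the lists include the gate genes Cdh5, Psmb11 and Krt5. The 6 endothelial markers reached 2485, 4005 and 2962 CPM (UMIs of a gene per 1000000 UMIs of all genes in the class and library) in Cdh5-positive cells, where the 5 epithelial markers summed to 26.7, 91.6 and 14.3 CPM against 927 to 5536 CPM in the Epcam-positive classes. The 6 cortical markers summed to 3036, 4155 and 1633 CPM in Psmb11-positive cells, and the 5 medullary markers to 5451, 8897 and 1579 CPM in Krt5-high cells. The separation was partial: the cortical markers summed to 1002, 1879 and 565 CPM in Krt5-high cells. The medullary markers summed to 685, 1105 and 404 CPM in Psmb11-positive cells. Over all cells Tbx1 measured 4.81 CPM in the library labelled Tbx1neo2/neo2 and 1.39 CPM in the control, that is, no lower, so a direction drawn from that library rests on its label. The 3′ counts do not read out the insert, nor the Foxn1 deletion.

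Of the 40 genes, 20 had at least 100 UMIs in the Epcam-positive or the Cdh5-positive cells, 13 claudins and all 7 others, and these are described with values. The same 20 passed the count filter of the test. The other 20, all claudins, had at most 50 UMIs in Epcam-positive cells, and 9 of them had no UMI in any barcode. Cldn34c1 belongs to a family of near-identical X-linked copies, and how its reads were divided among them is uncertain. Of the described genes, Cldn3, Cldn10, Marveld2, Tjp1 and Tjp3 overlap other annotated genes.

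Several members lie side by side in the genome (GRCm38, GENCODE vM21). Cldn3 (chr5:134986214-134987472, plus strand) and Cldn4 (chr5:134945119-134946934, minus strand) face away from each other across 39279 bases, with no protein-coding gene lying wholly between them. Cldn6 (chr17:23679249-23682446, plus strand) and Cldn9 (chr17:23682584-23684026, minus strand) meet tail to tail with 137 bases between them. Marveld2 and Ocln lie 43238 bases apart on the minus strand of chromosome 13. The 250 bases before the start of Cldn7, Cldn3, Cldn4 and Cldn5 are shown because Cldn7 was the most abundant claudin of every epithelial class, Cldn3 and Cldn4 are neighbours that were both higher in Krt5-high than in Psmb11-positive cells, and Cldn5 made up nearly all claudin transcripts of endothelium. They are RefSeq sequences of build GRCm38.p6, read 5′ to 3′ on the strand of the gene, at chr11:69964529-69964778 (plus strand), chr5:134985964-134986213 (plus), chr5:134946935-134947184 (minus) and chr16:18776597-18776846 (plus), and capitals mark a match to a searched motif.
Cldn7: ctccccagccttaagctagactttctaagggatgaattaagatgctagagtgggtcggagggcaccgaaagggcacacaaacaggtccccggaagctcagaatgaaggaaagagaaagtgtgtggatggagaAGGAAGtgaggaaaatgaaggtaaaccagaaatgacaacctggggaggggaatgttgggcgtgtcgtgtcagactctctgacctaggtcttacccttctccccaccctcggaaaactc
Cldn3: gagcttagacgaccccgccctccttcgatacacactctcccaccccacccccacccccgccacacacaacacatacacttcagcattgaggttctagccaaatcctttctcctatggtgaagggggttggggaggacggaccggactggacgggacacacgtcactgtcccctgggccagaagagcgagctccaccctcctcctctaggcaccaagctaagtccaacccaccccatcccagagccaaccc
Cldn4: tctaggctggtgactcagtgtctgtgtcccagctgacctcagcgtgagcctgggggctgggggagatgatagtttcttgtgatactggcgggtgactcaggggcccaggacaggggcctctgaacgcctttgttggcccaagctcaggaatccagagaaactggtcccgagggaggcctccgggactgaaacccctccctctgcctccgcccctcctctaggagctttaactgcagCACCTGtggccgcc
Cldn5: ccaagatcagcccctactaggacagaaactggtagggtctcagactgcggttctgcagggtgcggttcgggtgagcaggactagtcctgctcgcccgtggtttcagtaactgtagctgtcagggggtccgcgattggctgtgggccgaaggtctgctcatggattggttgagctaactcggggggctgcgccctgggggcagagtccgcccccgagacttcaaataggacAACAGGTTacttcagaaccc

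Motifs of 3 kinds were searched on both strands of these windows. AACNGGTT, the letters bound by Grainyhead-type factors, was found in 1.79% of all 32851 promoters and in 2 of the 16 described members with a promoter entry (Cgn and Cldn5). The capitals in Cldn5 are this match, 20 to 13 bases before the start. CACCTG, an E-box of the kind bound by Snail-type and Zeb-type repressors, was found in 17.2% of all promoters and in 4 of the 16 (Cldn4, Cldn6, F11r and Tjp3), and in Cldn4 it lies 14 to 9 bases before the start. AGGAAG, an ETS-type core that includes the letters bound by Elf3 and Ehf, was found in 29.5% of all promoters and in 3 of the 16 (Cldn7, Marveld2 and Tjp3); in Cldn7 it lies 118 to 113 bases before the start. No match of the 3 motifs was present in the Cldn3 window. The motifs do not overlap one another in the windows shown, and a match is a run of letters only.

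**Figure D1:**
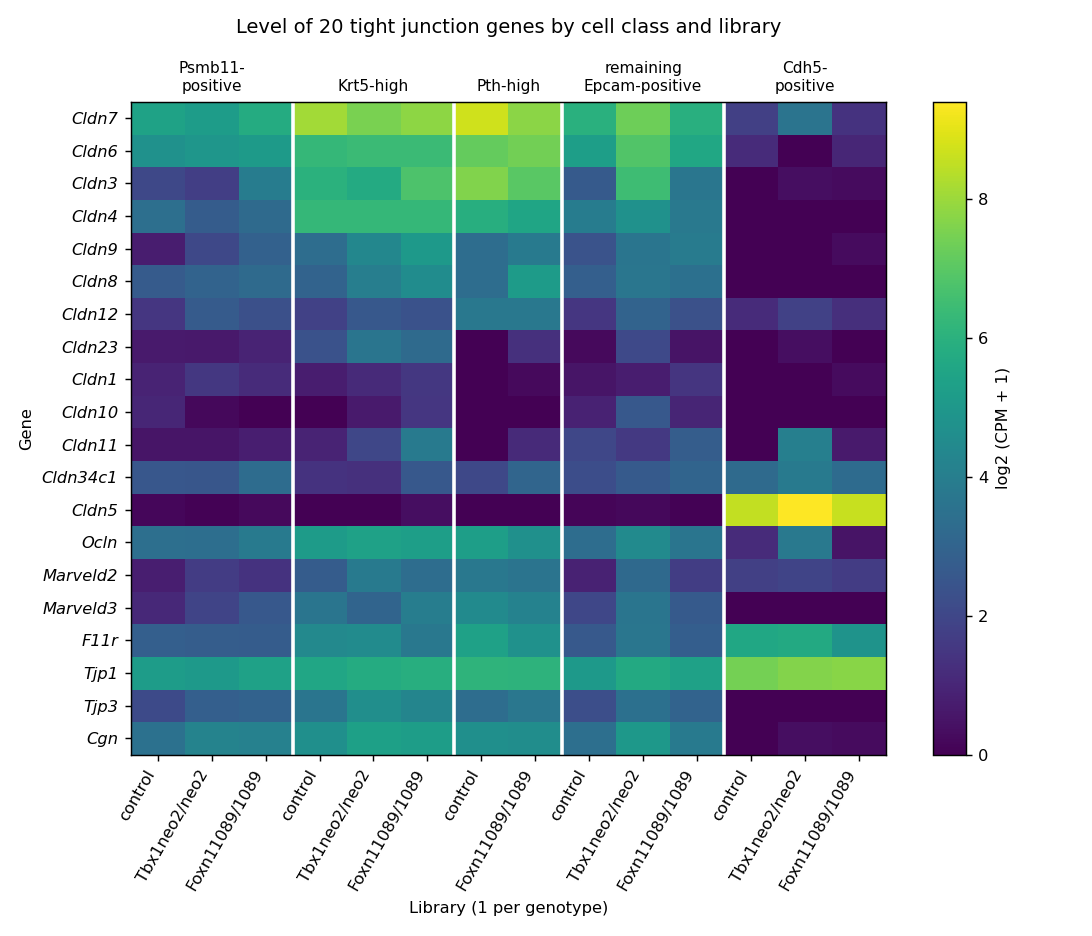
Level of the 20 described genes (rows), as log2 of CPM plus 1 in colour, in each cell class and library (columns, 1 library per genotype). Cldn7, Cldn6, Cldn3 and Cldn4 are brighter in the Krt5-high than in the Psmb11-positive column of the same library, Cldn5 is bright in the Cdh5-positive columns alone, and Tjp1 is seen in every column.

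The set was divided between endothelium and epithelium. Cldn5 stood at 370, 678 and 391 CPM in Cdh5-positive cells (95% intervals 329 to 414, 651 to 706 and 374 to 409), whereas all Epcam-positive cells of the 3 libraries together held 14 Cldn5 UMIs. The 3 libraries did not overlap the epithelial values in any class. Cldn5 was 93.7% to 96.5% of all claudin UMIs in Cdh5-positive cells. Cell by cell, after thinning every cell to 3000 UMIs, 57.4% of the 47 control Cdh5-positive cells had a Cldn5 UMI (97.9% before thinning), against none of the 658 Ptprc-positive cells, where the limit set by 3 counts is 0.456% of cells with a UMI.

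Each contrast between classes was tested with edgeR on UMIs summed per library and class, with the library as a block and Benjamini-Hochberg adjustment over 14244 genes. Between Cdh5-positive cells and the mean of the Psmb11-positive, Krt5-high and remaining Epcam-positive classes, 4 of the 20 genes were higher and 13 lower. Of all genes, 22.7% were higher and 27.2% lower. Higher in endothelium were Cldn5 (log2 fold change 12.02 ± 0.22 SE, adjusted p = 2.201e-11), Tjp1 (2.21 ± 0.10, adjusted p = 7.669e-09), F11r (2.14 ± 0.19, adjusted p = 2.17e-06) and Cldn34c1 (1.23 ± 0.30, adjusted p = 0.004884). Without the Foxn11089/1089 library 8 were lower, since Cldn3, Cldn12, Cldn23 and Ocln no longer passed and Cldn1 fell under the count filter, and the number higher ranged from 3 to 5 as each library was left out. Cldn34c1 did not pass without the control or without Tbx1neo2/neo2, nor did Ocln and Cldn23 without the control. ZO-1 transcripts were common to both cell kinds at unequal levels: Tjp1 measured 174, 200 and 214 CPM in Cdh5-positive cells and between 33.1 and 68.6 CPM in the Epcam-positive classes. F11r stood at 47.4, 51.5 and 27.3 CPM in endothelium against 5.14 to 40.5 CPM across the epithelial classes, so here the ranges overlapped, through the Pth-high cells of the control.

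Most epithelial members were close to or at zero in endothelium. Cldn4, Cldn8, Cldn10, Tjp3 and Marveld3 had no UMI in the Cdh5-positive cells of any library. Against the limit that 3 UMIs over the group would set (0.323 CPM), the pooled level in Epcam-positive cells other than Pth-high was at least 68.3-fold higher for Cldn4, at least 31.6-fold for Cldn8, at least 25.2-fold for Tjp3, at least 19.1-fold for Marveld3 and at least 4.20-fold for Cldn10. Cldn10 did not pass the test (adjusted p = 0.1449). Cldn3 had 2 UMIs in endothelium, a pooled ratio of 138 (counting interval 38.3 to 1143), Cgn had 2 (ratio 85.8, 23.7 to 709) and Cldn9 had 1 (ratio 109, 19.6 to 4321). Cldn6 had 6 UMIs, a ratio of 84.6 (38.8 to 231), and Cldn7 had 50, a ratio of 16.8 (12.7 to 22.6). Of the members with UMIs in both cell kinds, 2 did not pass the test: Marveld2, the tricellular protein tricellulin (log2 fold change -0.64 ± 0.44, adjusted p = 0.2493) and Cldn11 (1.42 ± 0.95, adjusted p = 0.2385). The Cldn11 value rests on the Tbx1neo2/neo2 library, where 47 of its 55 endothelial UMIs came from 1 cell, and without that library it was lower in endothelium (log2 fold change -2.90, adjusted p = 0.0315).

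**Figure D2:**
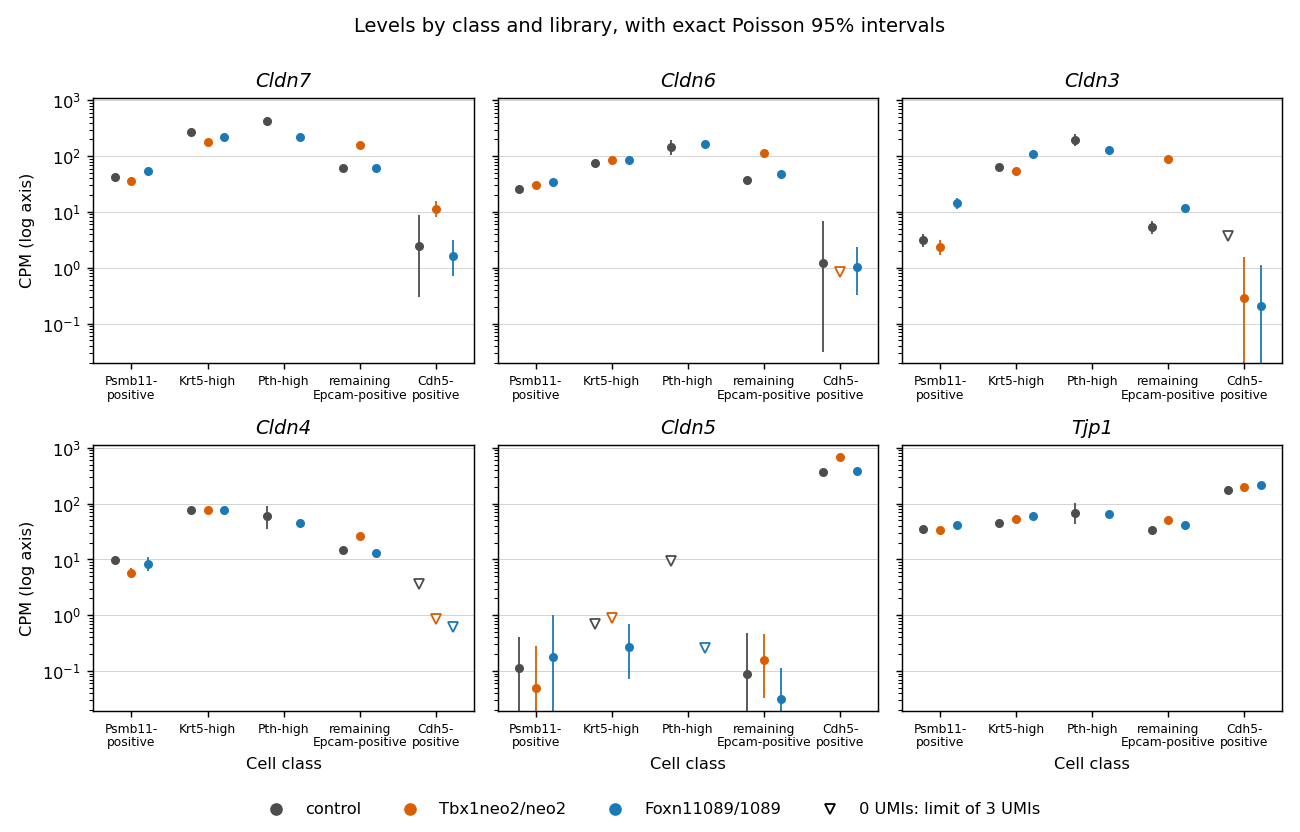
CPM (log axis) of 6 members in the 5 cell classes, 1 point per library with exact Poisson 95% intervals; open triangles mark 0 UMIs, drawn at the limit of 3 UMIs. Cldn7, Cldn6, Cldn3 and Cldn4 lie higher in Krt5-high than in Psmb11-positive cells in all 3 libraries, and Cldn5 stands at 370 to 678 CPM in Cdh5-positive cells.

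Within the epithelium, 7 described claudins and all 7 other junction genes were higher in Krt5-high than in Psmb11-positive cells. The 2 classes were gated on Krt5, a basal keratin, and Psmb11, the catalytic thymoproteasome subunit of cortical epithelium, and cells that passed both (226, 138 and 36) were counted as Psmb11-positive. Of the 20 genes, 14 were higher and 0 lower in Krt5-high cells. Of all genes, 6.59% were higher and 5.59% lower. DESeq2 also gave 14 higher and 0 lower, and 16 of the 20 had an unadjusted p under 0.05 in either direction. The median log2 fold change of the 20 was 1.69, against -0.01 over all genes. The counts depended on the control library. Without it 0 of the members were called higher, with the 14 still above 0 on the log2 scale and their adjusted p between 0.0585 and 0.424, and 16 of 15160 genes of any kind were called. Without Tbx1neo2/neo2 the count was 13 (Tjp1 and Cldn8 no longer passed and Cldn11 did), and without Foxn11089/1089 it was 11 (Tjp1, Cldn8 and Marveld3 no longer passed, and Cldn34c1 was lower). Without the library block 8 were higher.

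Cldn7, a claudin of many simple and glandular epithelia, was the most abundant. It measured 42.2, 35.7 and 53.7 CPM in Psmb11-positive cells (95% intervals 39.2 to 45.3, 33.1 to 38.4 and 47.8 to 60.1) and 272, 181 and 223 CPM in Krt5-high cells (257 to 288, 167 to 196 and 215 to 230). The classes did not overlap, and the log2 fold change was 2.38 ± 0.42 (adjusted p = 0.003916). Cldn3 went from 3.13, 2.31 and 14.3 CPM to 63.0, 53.2 and 109 CPM, a log2 fold change of 3.82 ± 0.88 (adjusted p = 0.01583). The Foxn11089/1089 library was the highest of the 3 for Cldn3 in both classes. Cldn4, its chromosomal neighbour, was nearly the same in the Krt5-high cells of all libraries, at 76.5, 75.6 and 75.5 CPM, and stood at 9.82, 5.73 and 8.41 CPM in Psmb11-positive cells (log2 fold change 3.28 ± 0.29, adjusted p = 0.0001934).

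Cldn6, known from embryonic epithelia, differed less, from 25.9, 29.98 and 34.2 CPM to 76.1, 85.1 and 84.1 CPM (log2 fold change 1.47 ± 0.29, adjusted p = 0.007262). Its tail-to-tail neighbour Cldn9 was scarcer and differed more, from 0.67, 3.07 and 6.62 CPM to 9.39, 19.7 and 33.4 CPM (2.83 ± 0.30, adjusted p = 0.0002383). In both classes Cldn9 was lowest in the control and highest in Foxn11089/1089. Cldn23 was higher at a low level (0.614, 0.553 and 0.895 CPM against 4.12, 11.6 and 8.61 CPM, adjusted p = 0.006801). Cldn8, known from the distal nephron, passed narrowly (log2 fold change 1.002 ± 0.27, adjusted p = 0.04057) with overlapping ranges of 5.47 to 8.59 CPM and 6.87 to 22.6 CPM. Cldn8 was the only called gene of the 14 whose ranges overlapped. Cldn12, Cldn1, Cldn10, Cldn5, Cldn11 and Cldn34c1 did not pass.

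The genes of the partner proteins differed in the same direction. Occludin (Ocln) stood at 9.77, 9.46 and 13.8 CPM in Psmb11-positive and 34.8, 40.3 and 37.9 CPM in Krt5-high cells (log2 fold change 1.81 ± 0.48, adjusted p = 0.02972). Marveld2 had the largest difference of the 7 other genes, 0.726, 2.16 and 1.61 CPM against 5.73, 13.1 and 9.35 CPM (2.77 ± 0.42, adjusted p = 0.001708), followed by Marveld3 (2.18 ± 0.52, adjusted p = 0.02396). F11r was higher by 1.65 ± 0.25 (adjusted p = 0.001757). The scaffolds spanned a range of sizes. Tjp1 differed least, at 35.8, 33.1 and 41.2 CPM against 45.8, 54.1 and 58.9 CPM (0.53 ± 0.14, adjusted p = 0.02454), Cgn was higher by 1.23 ± 0.21 (adjusted p = 0.003428) and Tjp3 by 1.74 ± 0.21 (adjusted p = 0.001058).

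Detection of the 4 abundant claudins was also counted cell by cell. Whether they were found together more often than their levels alone would give was not tested. After thinning to 3000 UMIs, at least 2 of Cldn3, Cldn4, Cldn6 and Cldn7 were detected in 2.02%, 1.98% and 3.25% of Psmb11-positive cells and in 28.6%, 27.1% and 30.5% of Krt5-high cells. The libraries lay close together within each class. No Cdh5-positive cell (47, 89 and 102 cells) and no Pdgfra-positive mesenchymal cell (675, 1335 and 2340 cells) had 2 of them after thinning. Without thinning it was 1, 0 and 1 Cdh5-positive cells and 0, 0 and 5 Pdgfra-positive cells. At full depth, which differed among libraries, the shares were 14.9%, 36.4% and 34.6% of Psmb11-positive and 77.5%, 89.8% and 84.2% of Krt5-high cells.

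**Figure D3:**
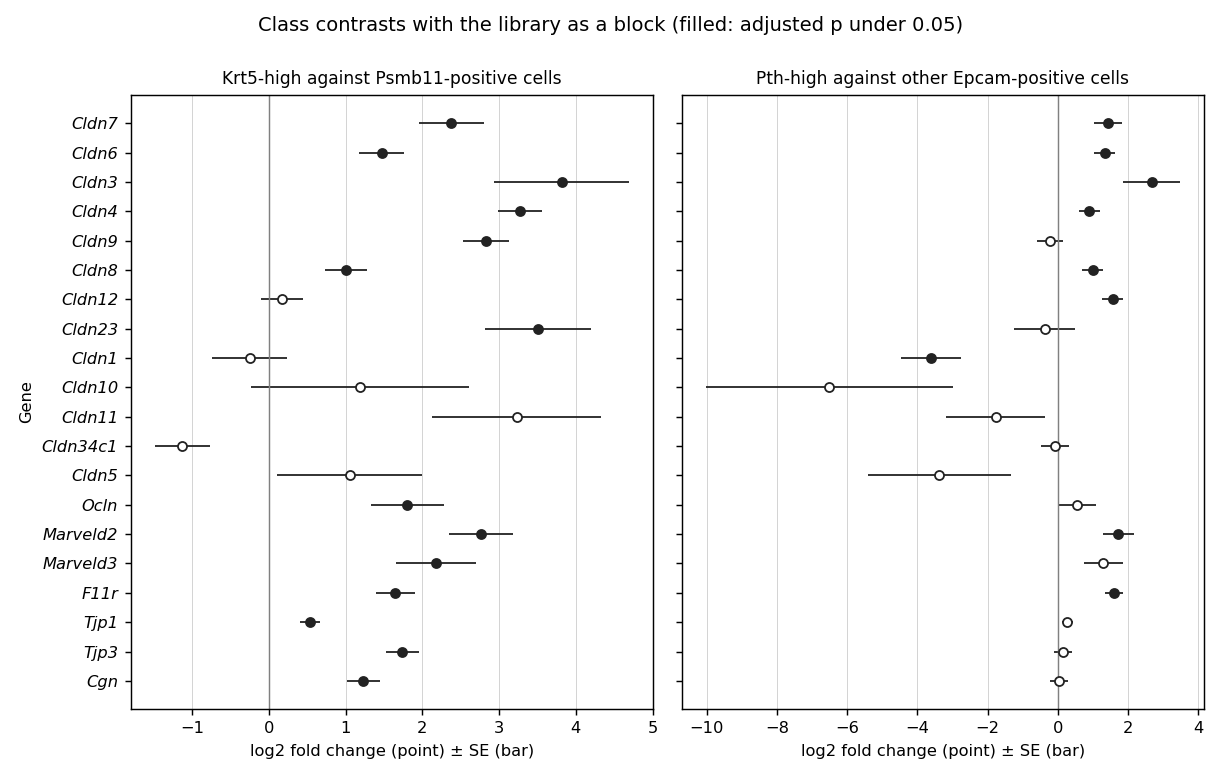
log2 fold change (points) with SE (bars) of the 20 genes for Krt5-high against Psmb11-positive cells (left) and Pth-high against other Epcam-positive cells (right), from edgeR with the library as a block; filled points passed an adjusted p of 0.05. On the left 14 points are filled, all to the right of 0; on the right 8 are filled above 0 and Cldn1 below it.

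Pth encodes parathyroid hormone, and the parathyroid gland arises from the same pharyngeal pouch as the thymus. Pth-high cells had the highest summed claudin level of the classes in both libraries that held them. All claudins together measured 860 CPM in the 26 control cells and 628 CPM in the 345 Foxn11089/1089 cells, against 514, 453 and 584 CPM in Krt5-high cells and 97.0, 97.0 and 142 CPM in Psmb11-positive cells. No cell of the Tbx1neo2/neo2 library passed this gate. Against the mean of the other Epcam-positive classes, 8 members were higher and 1 lower, where 22.1% of all genes were higher and 22.8% lower. The 8 were Cldn3 (log2 fold change 2.67 ± 0.82, adjusted p = 0.01958), Marveld2 (1.72 ± 0.44, adjusted p = 0.00783), F11r (1.61 ± 0.26, adjusted p = 0.0004193), Cldn12 (1.57 ± 0.30, adjusted p = 0.001272), Cldn7 (1.43 ± 0.39, adjusted p = 0.01136), Cldn6 (1.34 ± 0.29, adjusted p = 0.003256), Cldn8 and Cldn4. Without the control library 3 were higher and 0 lower, without Foxn11089/1089 0 and 0, and without Tbx1neo2/neo2 9 and 2. Leaving out either library that holds Pth-high cells leaves that class with 1 sum, whose spread is then taken from the other classes. Without the library block 5 were higher.

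Cldn7 stood at 427 and 218 CPM in the Pth-high cells of control and Foxn11089/1089, Cldn3 at 196 and 127 CPM, and Cldn6 at 143 and 166 CPM. For Cldn3 and Cldn6 both values lay above every other class of the same library. Cldn4 did not share this order: at 59.2 and 44.8 CPM it lay above Psmb11-positive but below Krt5-high cells. Cldn12, a claudin known for calcium transport in gut, was at 12.5 CPM in both libraries and at 1.79 to 7.07 CPM elsewhere in the epithelium. Its Pth-high values rest on 4 UMIs in the control, close to the limit of 3 UMIs, and on 147 in Foxn11089/1089. The gene lower was Cldn1, a claudin of the skin barrier, with 0 and 2 UMIs in Pth-high cells (log2 fold change -3.62 ± 0.85, adjusted p = 0.004828). Cgn (0.04 ± 0.26), Tjp3 (0.15 ± 0.26) and Cldn9 (-0.22 ± 0.37) did not pass. Of thinned Pth-high cells, 48.0% of 25 and 45.6% of 333 had at least 2 of Cldn3, Cldn4, Cldn6 and Cldn7.

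**Figure D4:**
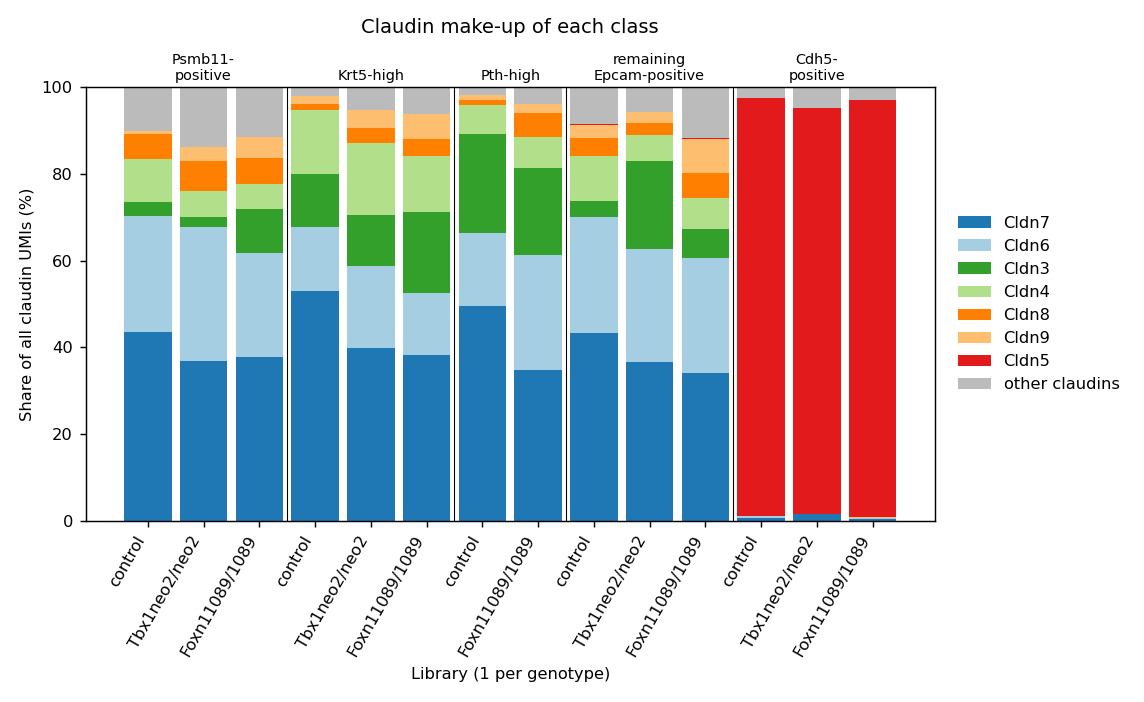
Share of all claudin UMIs (%) taken by each claudin in every class and library (stacked bars, each reaching 100%). Cldn7 and Cldn6 hold most of the Psmb11-positive bars, Cldn3 reaches 20.1% to 22.8% in Pth-high cells, and Cldn5 fills 93.7% to 96.5% of the Cdh5-positive bars.

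Cldn7 was the largest part of the claudin pool throughout the epithelium. It held between 34.0% and 52.9% of claudin UMIs in every Epcam-positive class of every library. Cldn6 was second in Psmb11-positive cells, with 26.7%, 30.9% and 24.0%, and held 14.8%, 18.8% and 14.4% in Krt5-high cells. Cldn3 went the other way, from 3.22%, 2.38% and 10.1% in Psmb11-positive to 12.3%, 11.7% and 18.7% in Krt5-high cells. Since each UMI stands for 1 captured 3′ end, these shares do not scale with transcript length.

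The remaining Epcam-positive cells were the most uneven class. The 5 hematopoietic markers summed in it to 207, 27.1 and 18.3 CPM, and the part of such transcripts in ratios to the control was not tested. The 5 epithelial markers summed there to 1076, 1249 and 927 CPM, below the 2079 to 5536 CPM of the Psmb11-positive and Krt5-high classes. Against the mean of those classes, 0 of the 20 genes were higher and 0 lower by edgeR, and 0 and 0 by DESeq2. Of the 20, 5 had an unadjusted p under 0.05, and 1.26% of all genes were higher and 3.46% lower. Cldn4 had a log2 fold change of -0.53 ± 0.23 (adjusted p = 0.2543) and Cldn3 of 0.26 ± 0.79 (adjusted p = 0.9233). The wide error of Cldn3 came with its values of 5.31, 88.4 and 11.8 CPM, in which the Tbx1neo2/neo2 library stood far above the other two. Cldn7 (61.4, 160 and 60.3 CPM) and Cldn6 (38.1, 114 and 47.4 CPM) had the same order. Without the Tbx1neo2/neo2 library 4 members were lower.

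That library held 160 Nkx2-1-positive cells among its 331 remaining Epcam-positive cells (48.3%), against 5 of 606 in the control. Nkx2-1 is a regulator of thyroid and lung epithelium. The thyroid genes Foxe1, Pax8 and Hhex stood at 352, 204 and 333 CPM in these 160 cells, and Sox2 at 122.7 CPM. The 5 thyroid markers summed to 636 CPM over the whole class in Tbx1neo2/neo2 and to 10.6 and 6.53 CPM in the control and Foxn11089/1089. The 5 airway and lung markers summed to 70.2 CPM there, all 5 with UMIs, against 3.13 and 2.31 CPM. Claudin transcripts were concentrated in the Nkx2-1-positive cells: Cldn7 at 280 CPM, Cldn6 at 191, Cldn3 at 177 (168 to 185), Cldn4 at 43.0 and Cldn10, at most 1.82 CPM in the other classes, at 9.93 CPM. In the other 171 cells Cldn7 stood at 43.8, Cldn6 at 39.4, Cldn3 at 3.50 (2.42 to 4.88) and Cldn4 at 9.66 CPM, at or below the control's 60.1, 37.9, 4.995 and 14.3 CPM without its Nkx2-1-positive cells, except for Cldn6, whose counting interval overlapped the control's, as did that of Cldn3. With the Nkx2-1-positive cells of every library left out, 7 members were lower in the remaining class than in Psmb11-positive and Krt5-high cells: Cldn3, Cldn4, Cldn23, Marveld2, F11r, Cgn and Tjp3. Of all genes, 4.34% were lower and 1.54% higher in that fit. Cldn3 then had a log2 fold change of -1.69 (adjusted p = 0.0115), the reverse of its sign with these cells in.

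Ratios of each mutant library to the control were centred on the median gene of the class, since that gene itself lay 0.18 to 0.46 above the control on the log2 scale. In all Epcam-positive cells, 6 of the 20 members with a ratio were at least 2-fold above the median gene in Tbx1neo2/neo2 and 1 was at least 2-fold below, where 8.25% and 11.5% of all genes were. In Foxn11089/1089 it was 8 and 1 of 21, where 12.2% and 12.5% of all genes were. The classes make up different shares of the Epcam-positive cells in the 3 libraries, so the classes are given one by one. In the remaining class of Tbx1neo2/neo2, 10 of 20 were above and 2 below (11.6% and 12.2% of all genes), and 2 and 1 of 19 without Nkx2-1-positive cells (5.63% and 11.1%). In that of Foxn11089/1089, 5 of 21 were above and 1 below (10.5% and 10.1%), and 4 and 0 of 20 without Nkx2-1-positive cells (10.4% and 9.86%).

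In Psmb11-positive cells, 3 of 16 members were above and 1 below in Tbx1neo2/neo2, where 4.81% and 9.22% of all genes were, and 3 and 0 in Foxn11089/1089, where 9.56% and 12.1% were. Cldn9 was above in both: its centred log2 ratio was 1.79 in Tbx1neo2/neo2 (interval 0.88 to 2.82, 61 UMIs against 12) and 3.13 in Foxn11089/1089 (2.16 to 4.20, 37 against 12). Cldn3 (2.02, interval 1.51 to 2.54) and Marveld3 (1.99, 1.11 to 2.89) were the others in Foxn11089/1089. Cldn12 (1.20) and Marveld2 (1.17) were the others above in Tbx1neo2/neo2, and Cldn4 was below (-1.18, interval -1.53 to -0.83). The cortical marker sum of this class was 4155 CPM in Tbx1neo2/neo2 and 1633 CPM in Foxn11089/1089 against 3036 CPM in the control, and its part in these ratios was not tested.

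In Krt5-high cells, 2 of 18 were above and 1 below in Tbx1neo2/neo2 (6.86% and 10.3% of all genes) and 5 and 0 in Foxn11089/1089 (9.34% and 11%). The 5 were Cldn11, a claudin of myelin and testis (203 UMIs against 4, centred log2 ratio 3.64, interval 2.26 to 5.53), Cldn9 (1.57, 1.11 to 2.07), Cldn8 (1.46, 0.92 to 2.05), Cldn34c1 (1.37, 0.26 to 2.74) and Cldn1 (28 UMIs against 3, interval -0.50 to 3.56). The Cldn1 interval includes 0. Cldn11, Cldn34c1 and Cldn1 reached the 30 UMIs needed for a ratio in this class only through Foxn11089/1089. The medullary marker sum was 1579 CPM in the Krt5-high cells of Foxn11089/1089 against 5451 CPM in the control. The 8 red cell markers summed to 21407 CPM in this class of Foxn11089/1089 against 591 CPM in the control, and to 15001 against 2063 CPM in Psmb11-positive, 25403 against 1824 CPM in the remaining and 16146 against 234 CPM in Pth-high cells. The 5 parathyroid markers summed to 66.1 against 7.56 CPM in Krt5-high and 59.98 against 5.86 CPM in Psmb11-positive cells. The part of these markers in the ratios was not tested. Cldn7, Cldn6 and Cldn4 stayed within 2-fold of the median gene in both mutants in this class. In Pth-high cells, 2 of 15 were above and 1 below in Foxn11089/1089 (11.7% and 8.52% of all genes): Cldn8 (413 UMIs against 3, 1.69, interval 0.13 to 3.97), Cldn34c1 (86 against 1) and, below, Cldn7 (-1.19, interval -1.44 to -0.93). For Cldn8 and Cldn34c1 the control count is at or under the limit of 3 UMIs. Both reached the 30 UMIs needed for a ratio only through Foxn11089/1089, so the count above was shaped by the filter.

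**Figure D5:**
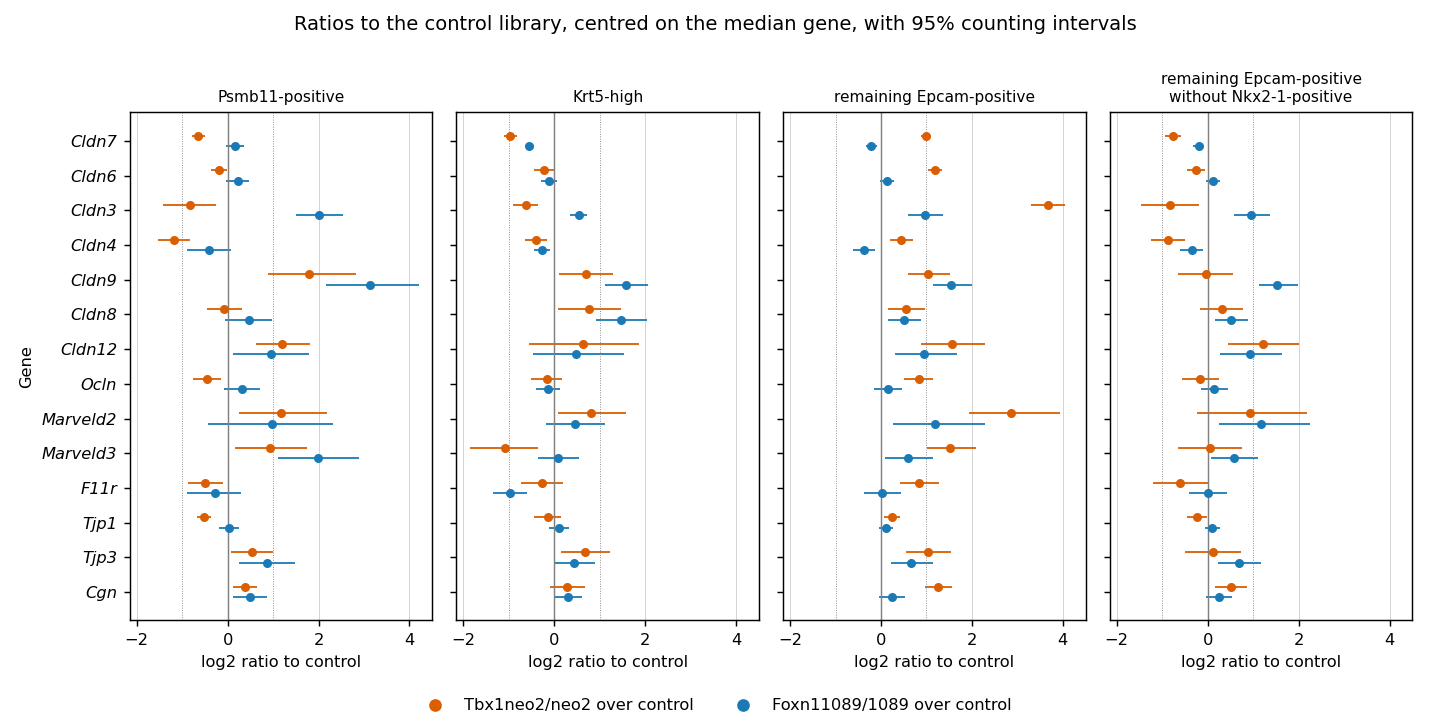
log2 ratio to the control library of 14 members, centred on the median gene of the class, in Psmb11-positive, Krt5-high and remaining Epcam-positive cells and in the latter without Nkx2-1-positive cells; bars are 95% counting intervals, dotted lines mark 2-fold. The Cldn3 point of Tbx1neo2/neo2 lies at 3.67 in the remaining class and falls below 0 once the Nkx2-1-positive cells are left out.

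In Cdh5-positive cells, Cldn5 and Tjp1 stayed within 2-fold of the median gene in both mutants. There 3 of 7 members with a ratio were above and 0 below in Tbx1neo2/neo2 (16.5% and 12.3% of all genes), Cldn7, Ocln and Cldn11. Cldn7 had 40 UMIs in 26 of the 90 cells (28.9%) and Ocln 45 UMIs in 31 cells (34.4%), with 12 cells holding both, against 2 and 1 UMIs in the control and 8 and 2 in Foxn11089/1089. Of the other epithelial genes in these 90 cells, Cldn6 had 0 UMIs, Cdh1 had 1 and Epcam had 10. The Epcam count was held low by the gates, since cells that also passed for Epcam were left out as mixed. In the control and Foxn11089/1089, Epcam had 3 and 27 UMIs and Cldn6 had 1 and 5. The keratin gene Krt18 had 185 UMIs in 56 cells of Tbx1neo2/neo2, against 15 and 22 UMIs in the control and Foxn11089/1089. The 5 epithelial markers (Krt8, Krt18, Krt19, Cdh1 and Spint2) together had 22, 322 and 71 UMIs in the Cdh5-positive cells (26.7, 91.6 and 14.3 CPM). These UMIs are not scaled to depth: the Cdh5-positive sums held 822525, 3517130 and 4948671 UMIs of all genes. The Cldn7 counting interval (-0.19 to 4.86) included 0. In Foxn11089/1089, 0 of 5 were above and 1 below (11% and 9.48% of all genes), F11r with a centred log2 ratio of -1.08 (interval -1.61 to -0.53). The 8 red cell markers summed to 19105, 5036 and 13107 CPM in Cdh5-positive cells, highest in the control. Their part in these ratios was not tested.

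Other junction genes were taken from 5 fixed lists. In the endothelial contrast, 22.7% of all genes were higher and 27.2% lower. Immunoglobulin-type junction proteins followed no single direction between endothelium and epithelium: 4 of 7 tested were higher in Cdh5-positive cells and 3 lower, from Esam, an endothelial adhesion molecule (log2 fold change 10.54), to Ildr1, a protein of tricellular contacts with no UMI in Cdh5-positive cells. Of 18 scaffold and polarity genes, 6 were higher and 8 lower, among them the cingulin paralogue Cgnl1 (2.34), in contrast with Cgn, and Crb3, with no endothelial UMI. Adherens junction genes gave 6 higher and 4 lower of 13, with Nectin2 at 2.13 and Cdh1, E-cadherin, at -6.85. All 9 desmosome genes and all 8 epithelial transcription regulators were lower in endothelium. Pkp1 and Grhl1 had no UMI there.

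Between Krt5-high and Psmb11-positive cells, 6.59% of all genes were higher and 5.59% lower. Of the lists, 4 of 9 desmosome genes, 6 of 13 adherens junction genes and 6 of 8 epithelial regulators were higher and 0 lower, with list medians of 1.13, 0.54 and 1.75 on the log2 scale against -0.01 over all genes. Among them were Ehf (log2 fold change 4.61), Nectin4 (4.07), Dsg3 (3.54) and Cdh1 (1.02). Of the scaffold and polarity genes 3 were higher and 1 lower of 18 (median 0.11), and of the immunoglobulin-type genes 1 was higher and 1 lower of 7 (median 0.19). In Pth-high cells, where 22.1% of all genes were higher and 22.8% lower, the lists went different ways. Desmosome genes were 1 higher and 5 lower, with Perp at -3.85, and epithelial regulators were 0 higher and 6 lower, with Ehf at -7.70, while 3 of 7 immunoglobulin-type genes were higher, with Jam2 at 6.06, as were 7 of 13 adherens junction genes, of which 2 were lower, and 5 of 18 scaffold and polarity genes, of which 1 was lower. In the remaining Epcam-positive class, 1.26% of all genes were higher and 3.46% lower. There 5 of 9 desmosome genes, 4 of 13 adherens junction genes and 4 of 8 epithelial regulators were lower, with Pkp1 at -4.04 and Dsg3 at -3.65, and the cadherin Cdh2 was higher at 1.64.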

How the data were processed

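Single cells of fetal thymic lobes were measured in 3 libraries of 3′ tags. Per the labels and the study's methods, the authors aligned the reads to mm10 with Cell Ranger 3.0.0, and the deposited files hold raw UMI counts per gene and barcode with no normalization. They later used Seurat, whose output was not used here. The members, lists and tests were chosen with earlier results of these data known.

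The filter kept barcodes in which 200 genes or more were detected and mitochondrial transcripts made up less than 20% (5932, 5516 and 11772), and those with at least 2000 UMIs were gated (5320, 3954 and 10309). A gate on Epcam, Cdh5, Ptprc or Pdgfra needed 2 UMIs and 50 CPM; cells passing more than 1 (123, 118 and 320) were left out. Pth-high cells had at least 1000 CPM of Pth, Psmb11-positive cells passed the same gate for Psmb11, and Krt5-high cells had Krt5 at or above the 75th percentile of control Epcam-positive cells (112 CPM; 202, 74 and 152 cells lay within 2-fold of it). Nkx2-1-positive cells had at least 2 UMIs of Nkx2-1. Median depth of Epcam-positive cells was 16634, 46146 and 20698 UMIs. Doublets other than mixed cells stayed in, and those scored highest by Scrublet in scanpy 1.11.5 were left out as an alternative.

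UMIs were summed per library and class of at least 20 cells and tested with edgeR 4.0.16 (quasi-likelihood, TMM, class plus library, filter by expression) in R 4.3.3, with DESeq2 1.42.0 as an alternative; p-values measure the spread of class differences over 3 libraries of unlike genotype, with nothing on separate animals. The replicate number is shared by all libraries and pairs none; the block is the library whose classes are compared. In simulated counts for the endothelial comparison (13753 genes), 68% of 2-fold and 97% of 4-fold changes were called and 0.059% of unchanged genes. The changed genes were drawn from those above a minimum mean CPM, and no other class or library effect was simulated. These shares may therefore not hold for scarce members. Genotype ratios used genes with at least 30 UMIs in a class over the libraries, 0.5 UMIs being added to both where 1 library was at 0. Intervals are exact 95% Poisson or binomial. Members with at least 100 UMIs in Epcam-positive or Cdh5-positive cells were described, and list genes named are those with the largest and smallest change in the endothelial comparison; Nectin4, Dsg3, Ehf, Perp, Jam2, Cdh1, Pkp1 and Cdh2 in the other contrasts were chosen after their values were seen. Promoters came from RefSeq, the first entry of a gene being used. Protein sequences were not used here, and 1 further junction gene is not reported here.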

Additional observations from a re-analysis of the deposited data

Results flagged for a closer look

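For 3 claudins the level outside the epithelial and endothelial classes was at least 2-fold above the highest within them, among those with at least 100 UMIs there. Cldn2 measured 21.5 CPM (919 UMIs) in Ptprc-positive hematopoietic cells against at most 0.498 CPM in any Epcam-positive or Cdh5-positive class. Cldn13 measured 15.0 CPM (556 UMIs) in red cells against 0.439 CPM in the remaining Epcam-positive cells, its highest value among those classes. Cldn1 measured 3.97 CPM (324 UMIs) in Pdgfra-positive cells against 1.55 CPM in Krt5-high cells. Cldn11 (17.1 CPM against 9.61 CPM in Krt5-high cells) and Cldn34c1 (13.96 CPM against 10.6 CPM in Cdh5-positive cells) were also highest in Pdgfra-positive cells, by less than 2-fold. These are sums over the 3 libraries, and no test was made.

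For 2 genes the ratio of Tbx1neo2/neo2 to control, centred on the median gene, pointed in opposite directions in different classes. Cldn11 had log2 ratios of 1.32 in Krt5-high cells (10 UMIs against 4), 4.23 in Cdh5-positive cells (55 against 0, with 0.5 UMIs added to each, 47 of the 55 in 1 cell) and -1.002 in the remaining Epcam-positive cells (37 against 34). Marveld3 had log2 ratios of 1.53 in the remaining Epcam-positive cells (220 against 35) and -1.09 in Krt5-high cells (24 against 51). The remaining class differed in make-up: 171 of its 331 cells in Tbx1neo2/neo2 were not Nkx2-1-positive, against 601 of 606 in the control. Without Nkx2-1-positive cells, 2 rather than 10 members were at least 2-fold above the median gene there. The differences between classes were not tested, and there was 1 library on each side of every ratio.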

How the results depend on the processing

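Of 142 recomputed counts of members, 125 stayed within 1.5 times of the value given and 17 did not. As each library was left out in turn, the members lower in endothelium ranged from 8 to 14, those higher in Krt5-high cells from 0 to 13 and lower from 0 to 1, those higher in Pth-high cells from 0 to 9 and lower from 0 to 2, and those lower in the remaining class from 0 to 4. Fitted without the library block (no replicate block), 8 members were higher in Krt5-high and 5 in Pth-high cells. With Krt5-high cells taken from the 90th percentile, 1 member (Cldn34c1) was lower in them. With Nkx2-1-positive cells left out, 7 members were lower in the remaining class, 4 rather than 7 were past 2-fold in the Epcam-positive cells of Tbx1neo2/neo2, and Cldn3 turned to -1.69 in the remaining class and, as a ratio of Tbx1neo2/neo2 to control, to -1.11 in Epcam-positive cells, as did Cldn10 to -2.10. In Cdh5-positive cells, 0 rather than 3 were past 2-fold in Tbx1neo2/neo2 when genes needed at least 100 UMIs, and 0 rather than 1 in Foxn11089/1089 when ratios were not centred or the gates needed 1 UMI. Cldn11 in endothelium ranged from -2.90 without Tbx1neo2/neo2 to 2.77 without Foxn11089/1089. Where no value above shows a cause, the cause was not tested. Among values of single genes, 1432 kept their call or stayed within their error, 93 moved, 59 lost and 19 gained a call. Fits with Krt5-high cells from the 50th percentile were not run, since that percentile is 0 CPM and leaves no remaining class. No paired analysis was possible because the genotypes share replicate number 1 alone. The depth of 48 to 102 Cdh5-positive cells per library limits the rarer claudins there.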
